A study of Mus musculus with 62 samples.

Results

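Transcripts of 10 adipocyte genes were followed in RNA-seq of the diaphragm, the sheet of skeletal muscle that drives breathing, as a view of fat lying within or on the muscle. The genes were listed by name and not by a rule on measured values, with earlier results of these data known. All 10 were found among the 47643 genes with values. They are the secreted factors Adipoq, Lep, Retn and Cfd, the lipid droplet proteins Plin1, Plin4 and Cidec, the fatty acid carrier Fabp4, and the lipases Lipe and Pnpla2. The list gave Cfd as "Cfd-like", which no row carries, and the row of Cfd (adipsin) was taken. All 10 passed the filter on low values, which kept 13578 genes.

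The 62 libraries came from female mice that were 2 months old at the start, each from 1 mouse. Cachectic mice had been injected with cells of a patient-derived melanoma that causes wasting of muscle and fat, non-cachectic mice with cells of a melanoma that does not, and control mice had a mock injection; the xenografts are single tumour lines, MAST360B and MAST552A in the methods. Diaphragms were taken 2, 4, 6 and 8 weeks later from 5 mice per condition, except for 7 cachectic mice at 8 weeks. The study design names athymic nude mice (NCI Ath/nude), in which human tumours can grow, whereas the sample labels name C57BL6/J, and this was not resolved; all groups carry the same strain label. RNA came from the muscular portion of the diaphragm, cut free of tendons.

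Adipocytes store triglyceride in a lipid droplet coated by perilipins and Cidec, and release it as fatty acids through successive lipases, of which Pnpla2 acts first and Lipe second. They also secrete hormones, among them adiponectin (Adipoq) and leptin (Lep), and Cfd, a protease of the complement system. Several of these genes are not confined to fat: Plin4, Pnpla2 and Lipe are also active in skeletal muscle, and Fabp4 in the endothelium of capillaries and in macrophages. Loss of fat stores is a known part of cachexia, next to the loss of muscle.

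The libraries were those of muscle, with 12 skeletal muscle markers summing to between 47405 and 108612 TPM (a share of the library's transcripts, corrected for transcript length and scaled to sum to 1000000). Fewer genes were above 0 in 4 libraries (15069 to 16389, against at least 17909 in the other 58). From 2 weeks these were replicates 3 and 4 of the cachectic group and replicate 5 of the non-cachectic group, and from 8 weeks replicate 3 of the cachectic group. Mitochondrially encoded transcripts took 54.4% to 61.5% of TPM in these 4 and at most 50.1% in the others. Liver markers were highest in control replicates 2, 4 and 5 at 2 weeks and cachectic replicate 5 at 6 weeks. Results that rest on the libraries with few genes are given with and without them, and their part in the results was otherwise not tested.

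The promoters of 4 of the genes are shown here because they form the 2 pairs described below, Adipoq with Cfd and Plin4 with Pnpla2, whose levels moved together across mice. RefSeq promoters of build GRCm38.p6, 300 bases each in the direction of transcription, were on hand for 9 of the 10 genes, all but Fabp4. Capitals mark CCAAT (the CCAAT box) and GGGCGG (the GC box bound by Sp1 factors) on either strand; AGGTCA, a half-site of nuclear receptors, was also searched.
Adipoq, chr16:23146286-23146585, plus strand: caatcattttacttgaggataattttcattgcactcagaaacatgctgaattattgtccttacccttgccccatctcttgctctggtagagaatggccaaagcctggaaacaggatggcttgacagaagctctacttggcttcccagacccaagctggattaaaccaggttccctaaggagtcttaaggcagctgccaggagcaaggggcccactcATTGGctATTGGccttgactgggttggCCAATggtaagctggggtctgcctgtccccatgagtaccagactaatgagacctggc
Cfd, chr10:79890603-79890902, plus strand: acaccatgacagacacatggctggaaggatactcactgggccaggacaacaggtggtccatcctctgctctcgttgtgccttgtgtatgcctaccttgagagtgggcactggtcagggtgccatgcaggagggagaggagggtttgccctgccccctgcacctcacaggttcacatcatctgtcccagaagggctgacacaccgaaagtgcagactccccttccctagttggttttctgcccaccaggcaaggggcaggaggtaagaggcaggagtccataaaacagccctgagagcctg
Plin4, chr17:56109733-56110032, minus strand: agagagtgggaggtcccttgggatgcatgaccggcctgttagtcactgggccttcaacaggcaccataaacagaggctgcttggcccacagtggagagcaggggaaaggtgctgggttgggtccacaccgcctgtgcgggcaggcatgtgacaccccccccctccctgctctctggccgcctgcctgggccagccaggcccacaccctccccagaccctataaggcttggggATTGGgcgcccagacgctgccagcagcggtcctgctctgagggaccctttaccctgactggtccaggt
Pnpla2, chr7:141454938-141455237, plus strand: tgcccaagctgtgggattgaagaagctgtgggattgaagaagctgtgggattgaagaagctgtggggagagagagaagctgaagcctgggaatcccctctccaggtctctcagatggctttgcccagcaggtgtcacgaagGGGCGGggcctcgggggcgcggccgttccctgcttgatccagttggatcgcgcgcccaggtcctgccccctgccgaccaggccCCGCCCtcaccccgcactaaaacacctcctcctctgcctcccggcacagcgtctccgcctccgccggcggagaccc

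The Adipoq promoter held CCAAT 3 times and the Cfd promoter held none of the 3 motifs, although these genes varied together. The Plin4 promoter held CCAAT once and the Pnpla2 promoter GGGCGG 2 times. Neither pair therefore shared one of these motifs within this window. Across the 32851 mouse promoters of the table, 37.4% held CCAAT, 35.7% GGGCGG and 16.3% AGGTCA, and AGGTCA was in 0 of the 11 promoters of the listed genes. These matches describe letters and not binding.

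Fabp4, which carries fatty acids inside the cell, had the highest level per transcript length, with a median of 694 TPM over all mice. Plin4 (216 TPM), Pnpla2 (214 TPM) and Cfd (179 TPM) followed. Adipoq (24.8 TPM), Cidec (23.6 TPM), Lipe (19.5 TPM) and Retn (14.9 TPM) were lower by about an order of magnitude. Plin1, the perilipin most closely tied to fat cells, had a median of 4.29 TPM and Lep of 0.396 TPM. Lep reached 1 TPM in 12 of the 62 mice and was listed at 0 in 3, so its values lay near the limit of detection; the depth of the libraries is not known from TPM.

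**Figure D1:**
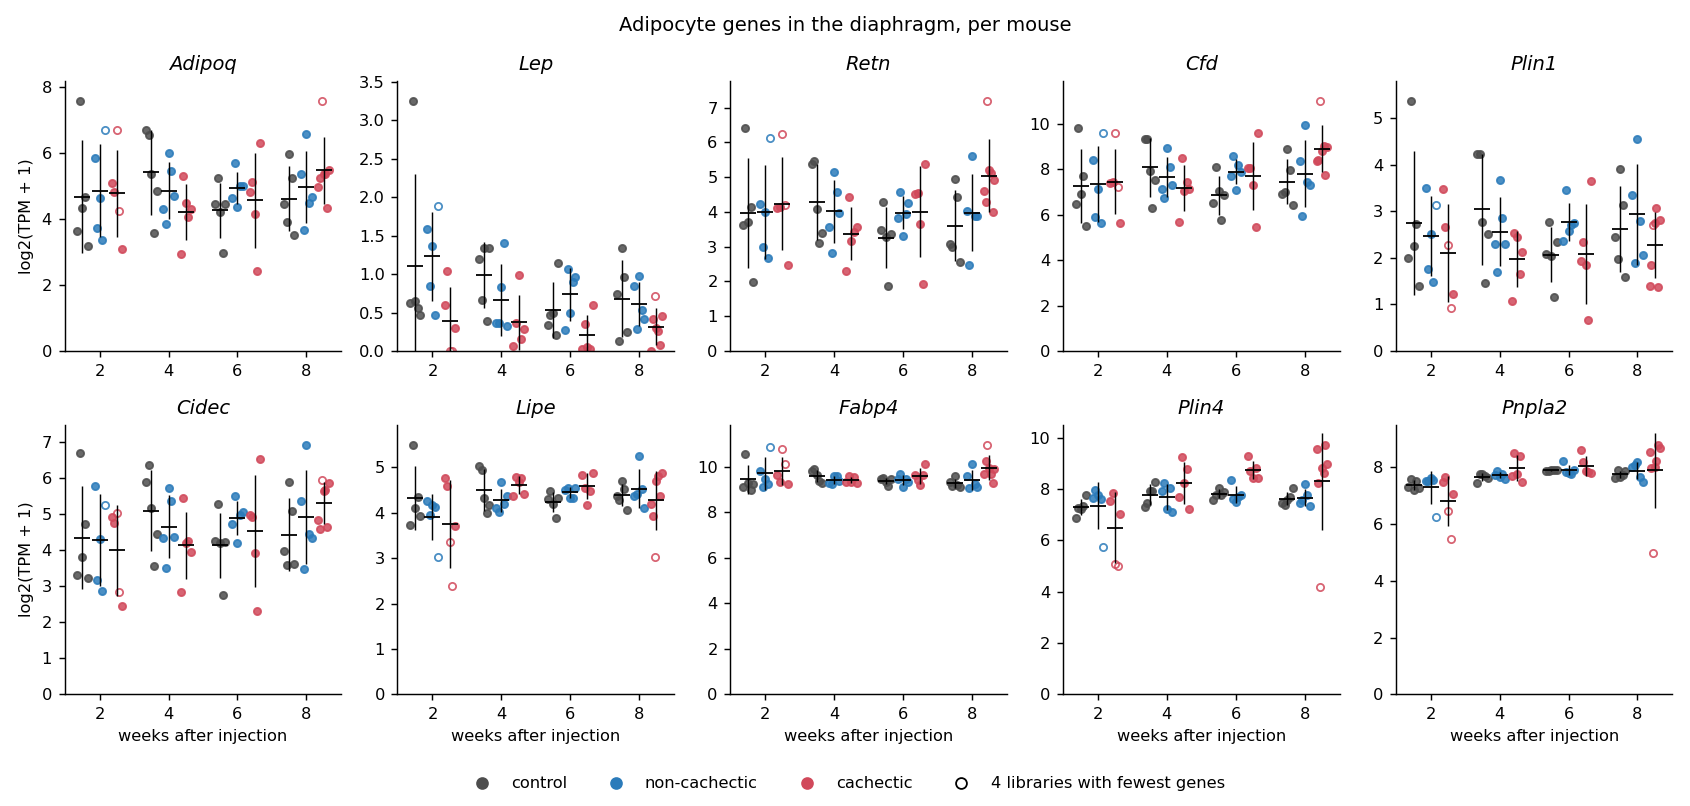
Level of each gene, log2(TPM + 1), against weeks after injection; each point is 1 mouse, horizontal marks are means and vertical lines SD, and open points are the 4 libraries with the fewest genes. Adipoq, Retn, Cfd, Plin1 and Cidec spread widely inside every condition, while Plin4 stood higher in cachectic mice at 6 weeks, where no point of another group reaches theirs.

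Adipoq, Cfd, Retn, Cidec and Plin1 varied much more from mouse to mouse than between groups. Adipoq, the hormone adiponectin, ran from 4.33 TPM in cachectic replicate 4 at 6 weeks to 192 TPM in cachectic replicate 3 at 8 weeks, a 44.2-fold range. Cfd ranged 47.0-fold, Retn 54.4-fold, Plin1 69.5-fold and Cidec 30.5-fold. Within conditions the SD of Adipoq was 1.15 on the log2 scale, above that of 98.4% of the genes tested, for which the median SD was 0.33. The SD was 1.23 for Cfd, 1.11 for Retn, 1.09 for Cidec and 0.94 for Plin1. In whole tissue, fewer adipocytes in a piece and less RNA per adipocyte cannot be told apart.

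No ordering of the conditions by Adipoq stood out from this spread. Mean Adipoq was highest in cachectic mice at 8 weeks, at 57.6 ± 59.7 TPM (SD, n = 7), and lowest in cachectic mice at 4 weeks, at 20.3 ± 11.9 TPM (n = 5). Control mice at 4 weeks had 55.6 ± 41.2 TPM and at 2 weeks 50.9 ± 78.5 TPM, of which control replicate 2 alone had 191 TPM. Neighbours in this order differed by less than their SD throughout. At 8 weeks Adipoq was 10.5, 14.2, 21.0, 37.0 and 61.7 TPM in control mice. In non-cachectic mice it was 11.8, 21.6, 24.7, 40.9 and 95.6 TPM. Cachectic mice had 19.1, 30.4, 36.7, 40.6, 40.8, 44.3 and 192 TPM, and thus all but the highest lay inside the range of the non-cachectic mice.

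**Figure D2:**
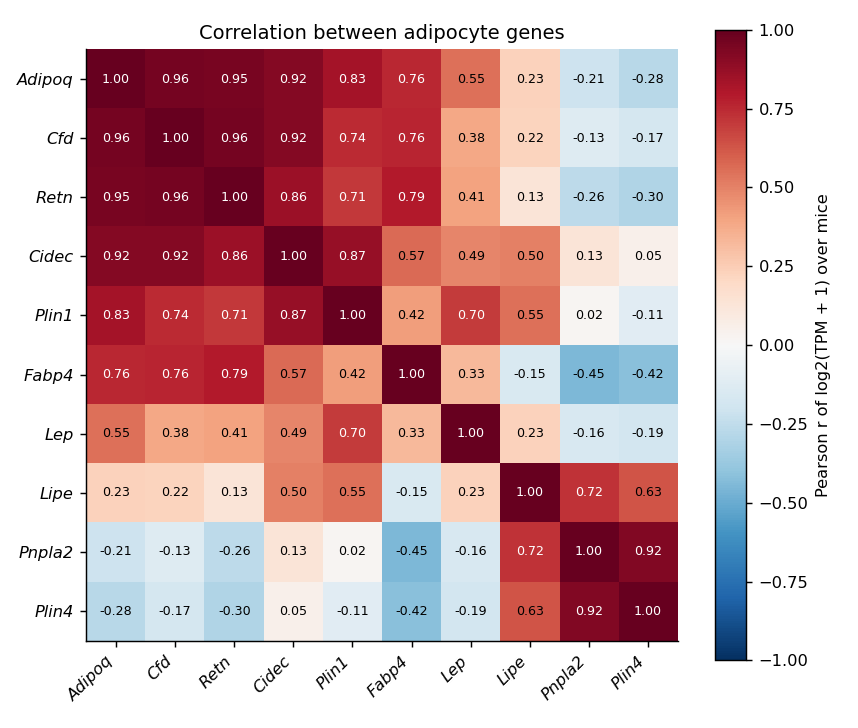
Pearson correlation of log2(TPM + 1) between each 2 of the 10 genes over 62 mice, red for positive and blue for negative. Adipoq, Cfd, Retn, Cidec and Plin1 form one red block (0.71 to 0.96) and Plin4 with Pnpla2 (0.92) another, with values near or below 0 between the blocks.

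Across the 62 mice, which share the same libraries and conditions, the correlation with Adipoq on the log2 scale was 0.96 for Cfd, 0.95 for Retn, 0.92 for Cidec, 0.83 for Plin1 and 0.76 for Fabp4. It was 0.55 for Lep. Taken as deviations from the condition means, the correlation was 0.98 for Cfd and 0.97 for Retn, so that both rose with Adipoq within conditions too. The levels varied together from one animal to the next, as the scatter of Adipoq and Cfd shows. For Plin4 and Pnpla2 the correlation with Adipoq was −0.28 and −0.21, whereas with each other they reached 0.92. Without the 4 libraries with few genes, Plin4 and Pnpla2 still had 0.83 with each other, and 0.00 and 0.15 with Adipoq. Lipe, which cuts diglycerides in both tissues, moved between the blocks: its correlation with Adipoq was 0.23 in all mice and 0.72 without those libraries, and with Pnpla2 it was 0.72 and 0.36.

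**Figure D3:**
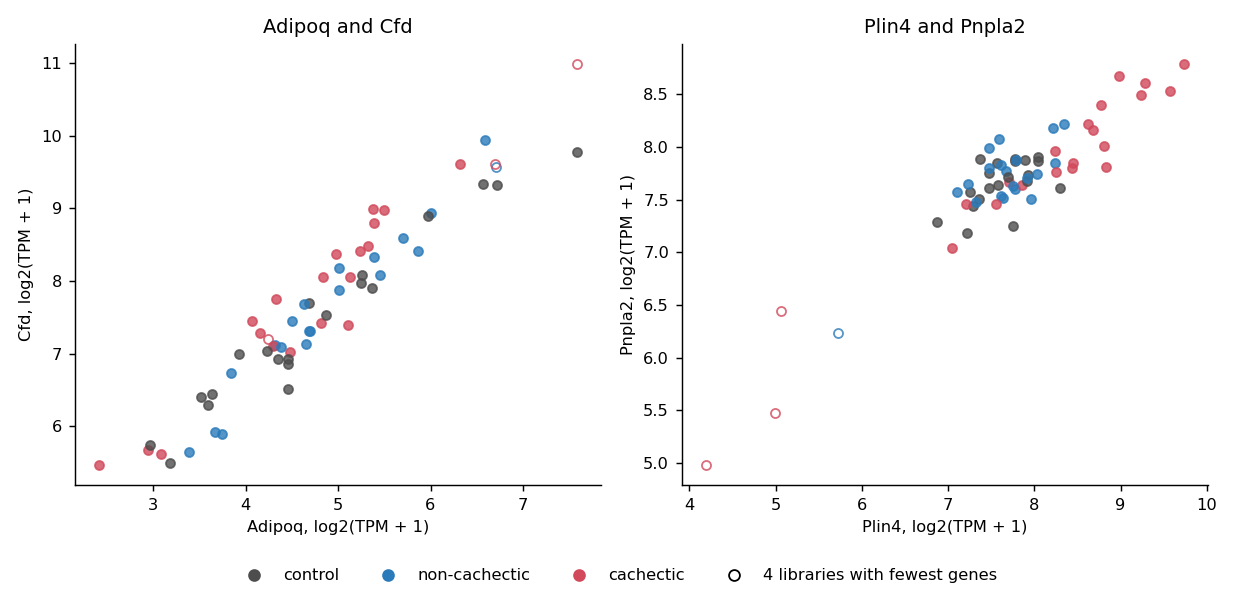
Level of Cfd against Adipoq (left) and of Pnpla2 against Plin4 (right), log2(TPM + 1) on both axes, 1 point per mouse, coloured by group, with the 4 libraries with the fewest genes as open points. On the left Cfd rises with Adipoq in every group, although cachectic mice had more Cfd per Adipoq than control mice at 6 and 8 weeks. On the right cachectic mice fill the upper end, and the open points fall far below the rest.

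The 5 other genes whose levels were most like Adipoq, out of all genes tested, were Arxes2 (r = 0.92), Car5b (0.88), Prkar2b (0.87), Ifi27l2a (0.86) and Slc7a10 (0.85), each over 62 mice. None of them was on the list, and Cfd, Retn and Cidec were closer to Adipoq than all 5. All 5 ranked above Plin1 by this measure.

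The question put to the groups was whether the diaphragm of cachectic mice carries less, or changed, adipocyte transcript than that of control mice. At 8 weeks 1 of the 10 genes, Fabp4, was called by limma (adjusted p under 0.05, adjusted over all genes tested), against 14.8% of the genes tested. Fabp4 was 542, 561, 587, 633 and 771 TPM in control mice, and 623, 813, 827, 950, 991, 1204 and 2000 TPM in cachectic mice. Of the 7 cachectic mice, 6 lay above every control, with the highest value in the library with few genes. The log2 fold change was 0.69 ± 0.24 (SE; adjusted p = 0.0436, limma), and the exact two-sided permutation p of this single gene was 0.00758, unadjusted. Against non-cachectic mice, at 534 to 1113 TPM, it was 0.54 ± 0.24 (adjusted p = 0.149), and 0 of the 10 genes were called, against 12.9%.

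The call of Fabp4 was not stable. Dunn's rank test kept it (adjusted p = 0.0386). In limma, array weights (adjusted p = 0.00817) and leaving out the 4 libraries with the most liver markers (adjusted p = 0.0288) kept it too. Fitting only the 2 groups compared, or adding a replicate block, lost it. Without cachectic replicate 3 at 8 weeks the log2 fold change was 0.52 with an adjusted p of 0.118 by limma, and without all 4 libraries with few genes it was 0.52 ± 0.19 with an adjusted p of 0.0246. It was also lost on leaving out control replicate 1, 2, 4 or 5 or cachectic replicate 2 or 4 at 8 weeks, with no filter on low values, under median-ratio or quantile scaling, and on TPM without mitochondrially encoded genes, where without the 4 libraries the log2 fold change was 0.35 ± 0.20 (adjusted p = 0.162, limma). Macrophage markers, among the cells that also express Fabp4, moved in the same comparison: 4 of 8 were higher in cachectic mice at 8 weeks and 0 lower, and their sum had a median of 789 TPM (289 to 1199) against 412 TPM (302 to 606) in control mice. Of all genes tested, 6.65% were called higher and 8.12% lower in this comparison in all mice. Endothelial markers summed to a median of 287 TPM in cachectic and 292 TPM in control mice. The part of either cell type in the Fabp4 values was not tested.

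**Figure D4:**
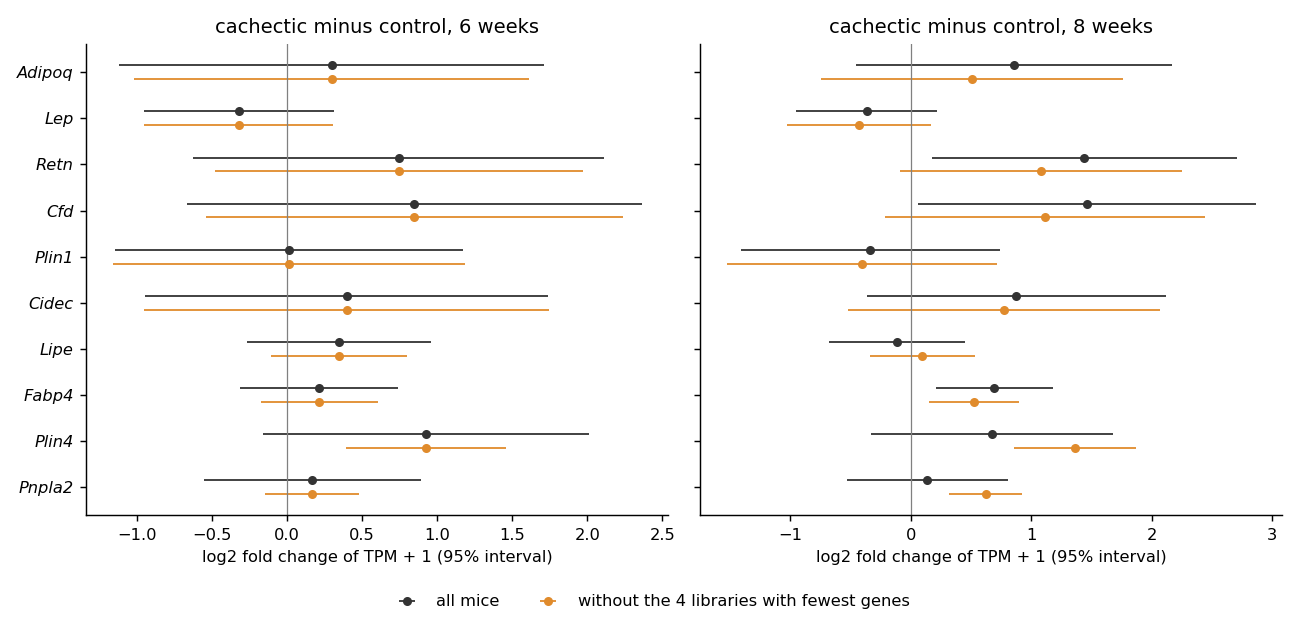
Log2 fold change of each gene between cachectic and control mice (points; lines are 95% intervals, limma) at 6 and 8 weeks, in all mice and without the 4 libraries with the fewest genes. Intervals of Adipoq, Retn, Cfd, Plin1 and Cidec are wide, and leaving out the libraries narrows those of Plin4 and Pnpla2 and moves them above 0 at 8 weeks.

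The secreted factors did not pass the test at 8 weeks in either direction. Cfd was 84.0, 120, 127, 249 and 474 TPM in control mice, and 214, 329, 341, 446, 505, 508 and 2033 TPM in cachectic mice. The groups overlapped, with 3 cachectic mice above all controls, and the log2 fold change was 1.46 ± 0.70 (adjusted p = 0.164, limma). Retn, which encodes resistin, had a mean of 43.0 ± 45.8 TPM in cachectic and 14.0 ± 10.9 TPM in control mice, a log2 fold change of 1.44 ± 0.63 (adjusted p = 0.123). For Adipoq it was 0.86 ± 0.65 (adjusted p = 0.433; 95% interval −0.46 to 2.17). The interval for Adipoq thus spans values on both sides of 0, and neither a rise nor a fall was shown with this spread.

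Lep, the hormone whose level follows fat mass, was at 0.0916, 0.182, 0.663, 0.941 and 1.53 TPM in control mice at 8 weeks. In cachectic mice it was listed at 0 in 1 mouse and lay between 0.0519 and 0.638 TPM in the other 6. The groups overlapped, and the log2 fold change on the log2(TPM + 1) scale, which compresses such low values, was −0.36 ± 0.29 (adjusted p = 0.459, limma). At 6 weeks it was −0.32 ± 0.32 (adjusted p = 0.617), at 4 weeks −0.61 ± 0.32 (adjusted p = 0.944). No call was made for Lep at any of the 4 times in the fit of all mice without a covariate.

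Among droplet proteins of fat cells, Plin1 was 2.00, 2.96, 4.51, 7.83 and 14.0 TPM in control mice at 8 weeks and between 1.61 and 7.41 TPM in cachectic mice, with a median of 5.51 TPM. The groups overlapped, although 2 cachectic mice lay below every control, and the log2 fold change was −0.34 ± 0.54 (adjusted p = 0.743, limma). Cidec, which enlarges droplets, was 0.88 ± 0.62 (adjusted p = 0.390). The lipase Lipe was −0.11 ± 0.28 (adjusted p = 0.848), at 20.1 ± 3.50 TPM in control mice (n = 5) and 19.8 ± 7.70 TPM in cachectic mice (n = 7).

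Plin4, a perilipin of fat and muscle, lay above both other groups in cachectic mice at 6 weeks. At 6 weeks it was 188, 217, 218, 236 and 263 TPM in control mice. Non-cachectic mice had 177, 194, 204, 220 and 323 TPM. In cachectic mice it was 344, 348, 411, 455 and 622 TPM, above every mouse of both other groups. In the fit of all mice the log2 fold change against control mice was 0.93 ± 0.54 (adjusted p = 0.343, limma), and 0 of the 10 genes were called, against 6.79%; against non-cachectic mice it was 0.96 ± 0.54 (adjusted p = 0.368), with 0 of 10 called against 5.85%. The SE comes from the spread over all 12 conditions, which includes the libraries with few genes, where Plin4 was at 17.2 to 52.0 TPM. Without those 4 libraries, none of which was from 6 weeks, the same difference had an SE of 0.26 and an adjusted p of 0.00664, and that against non-cachectic mice an adjusted p of 0.00564. The exact two-sided permutation p was 0.00794, unadjusted, the smallest that 5 against 5 mice allow.

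Such separation was frequent in the table. At 6 weeks 15.9% of the genes tested were higher in every cachectic mouse than in every control, and 13.6% higher than in every non-cachectic mouse, against 1 of the 10 genes here. The median gene was 0.17 higher on the log2 scale in cachectic than in control mice at 6 weeks.

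At 8 weeks Plin4 was 165, 177, 191, 205 and 262 TPM in control mice and 159, 177, 191, 215 and 296 TPM in non-cachectic mice. Among cachectic mice 6 had 301, 392, 448, 505, 763 and 851 TPM, and the library with few genes, replicate 3, had 17.2 TPM. With it the log2 fold change against control mice was 0.68 ± 0.50 (adjusted p = 0.418, limma). Without it alone the value was 1.36 (adjusted p = 0.00503), and without all 4 libraries 1.36 ± 0.25 (adjusted p = 3.2e-05), with 1.32 ± 0.25 (adjusted p = 5.9e-05) against non-cachectic mice. The 6 cachectic mice then lay above all mice of both other groups, a separation that 9.51% of the genes tested showed from control mice and 9.57% from non-cachectic mice. In fits without array weights, whether Plin4 was called at 8 weeks turned on that single library. With the library kept, array weights gave a log2 fold change of 1.29 (adjusted p = 7.5e-06, limma) against control mice. Against non-cachectic mice they gave 1.31 (adjusted p = 6.4e-06). The share of all genes called under array weights is not given here.

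Pnpla2, the first lipase of the droplet, behaved like Plin4 with a smaller difference. At 8 weeks it was 194, 199, 209, 233 and 235 TPM in control mice. The 6 cachectic mice other than replicate 3 had 247, 257, 297, 369, 407 and 440 TPM, and replicate 3 had 30.6 TPM. Without the 4 libraries the log2 fold change was 0.62 ± 0.15 (adjusted p = 0.000996, limma) against control and 0.49 ± 0.15 (adjusted p = 0.00883) against non-cachectic mice, whose values reached 289 TPM and overlapped. In all mice it was 0.14 ± 0.33 (adjusted p = 0.843). With array weights in all mice it was 0.66 (adjusted p = 5.5e-05, limma) against control and 0.59 (adjusted p = 0.000276) against non-cachectic mice. Without replicate 3 alone it was 0.62 (adjusted p = 0.0461) against control and 0.49 (adjusted p = 0.134) against non-cachectic mice. At 6 weeks the fold change was 0.17 ± 0.36 (adjusted p = 0.834), equal to that of the median gene.

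Without the 4 libraries 3 of the 10 genes (Plin4, Pnpla2 and Fabp4) were thus called higher at 8 weeks against control mice, where 22.2% of all genes were, and 2 of the 10 (Plin4 and Pnpla2) against non-cachectic mice, where 23.2% were. At 6 weeks it was 1 of 10 (Plin4) in each comparison, against 26.9% and 22.1%. These shares are no result about the list as a set. The same holds for the median log2 fold change of the 10 genes at 8 weeks against control mice. It was 0.68 in all mice (−0.09 over all genes tested) and 0.57 without the libraries (0.06 over all genes tested). In all mice the single values ran from −0.36 for Lep to 1.46 for Cfd. Adipoq, Cfd, Retn, Cidec and Plin1 also varied together, so the 10 values are not independent. Of 12 skeletal muscle markers, 5 were called higher and 2 lower at 8 weeks against control mice without the libraries. Of all genes tested 22.2% were higher and 12.4% lower in that fit. In all mice their sum had a median of 94761 TPM in cachectic and 81883 TPM in control mice at 8 weeks. Whether muscle RNA had a part in the Plin4 and Pnpla2 values was not tested.

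The share of TPM taken by mitochondrially encoded transcripts had a lower median in cachectic than in control mice at 6 and 8 weeks. At 6 weeks it was 34.3% to 44.9% in cachectic mice, with a median of 39.8%, and 44.9% to 47.9% in control mice, with a median of 46.2%. At 8 weeks it was 32.5% to 41.6% in the 6 cachectic mice other than replicate 3, and 40.9% to 49.3% in control mice. TPM sums to a fixed total, so a lower share of these transcripts raises the TPM of all other genes. The values were therefore scaled again without mitochondrially encoded genes, a fit made without the 4 libraries after the shares had been seen. In it Plin4 was higher at 6 weeks by 0.76 ± 0.25 against control mice (adjusted p = 0.0273, limma), and 9.65% of the genes tested were called higher. Against non-cachectic mice at 6 weeks it was higher by 0.80 ± 0.25 (adjusted p = 0.0186), where 8.86% were. At 8 weeks Plin4 was higher by 1.19 ± 0.24 (adjusted p = 0.000102) against control and 1.15 ± 0.24 (adjusted p = 0.000212) against non-cachectic mice, where 11.7% and 11.6% of the genes tested were. Pnpla2 was higher at 8 weeks by 0.45 ± 0.14 against control mice (adjusted p = 0.00824), while its difference from non-cachectic mice, 0.32 ± 0.14, did not pass (adjusted p = 0.0691). In all mice, without these genes, the log2 fold change of Plin4 was 0.76 at 6 weeks and 0.57 at 8 weeks against control mice (adjusted p = 0.466 and 0.354). The median gene differed by 0.03 between cachectic and control mice at 6 weeks on this scale. The part of the mitochondrial share in the results was not tested further.

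At the earlier times no gene of the list was called in any comparison in all mice. For cachectic against control mice, 29.3% of the genes tested were called at 2 weeks, where 2 of the 5 cachectic libraries are those with few genes, and 0.0221% at 4 weeks. Between cachectic and non-cachectic mice the shares were 0.0% at 2 weeks and 0.0295% at 4 weeks. At 2 weeks without the 4 libraries, 0 genes of the table were called by limma at adjusted p under 0.05 (2013 at an unadjusted p under 0.05). Fold changes of the list at 4 weeks ran from −1.20 ± 0.71 for Adipoq to 0.46 ± 0.54 for Plin4. Non-cachectic and control mice did not separate either: 0 of the 10 genes were called at any time, against 4.43% of the table at 2 weeks and 0.0% at 4, 6 and 8 weeks.

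Over time, the difference between cachectic and control mice was compared directly between 8 weeks and each earlier time, and 0 of the 10 genes were called, against 5.27%, 0.0% and 0.0% of the table for 2, 4 and 6 weeks. Without the 4 libraries the difference in Plin4 was larger at 8 than at 2 weeks by 1.17 ± 0.40 (adjusted p = 0.0324, limma), against 19.0% of the table called. Cachectic mice at 8 weeks also had more Plin4 than at 4 weeks, by 0.76 ± 0.25 (adjusted p = 0.0398), without the libraries, against 12.3%; with them 0 of 10 genes were called, against 2.07%. Control and non-cachectic mice gave 0 calls in the list and 0.0% in the table between these times.

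Since Adipoq varied so widely between mice, the other 9 genes were also compared at equal Adipoq, by adding its log2 level as a covariate; this was chosen after the values had been seen. At equal Adipoq 4 of 9 genes were called in cachectic mice at 8 weeks against control mice, against 13.1% of the table. Against non-cachectic mice it was 3 of 9, against 12.7%. A change in Adipoq within fat cells would move all of these values and the ratios below, and was not tested. Plin1 was lower, by −0.95 ± 0.26 (adjusted p = 0.00767, limma) against control and −1.03 ± 0.26 (adjusted p = 0.00362) against non-cachectic mice. Cfd was higher, by 0.57 ± 0.15 (adjusted p = 0.0067) and 0.57 ± 0.15 (adjusted p = 0.00605). Retn was higher, by 0.64 ± 0.17 (adjusted p = 0.00729) and 0.58 ± 0.17 (adjusted p = 0.0151), and Fabp4 by 0.44 ± 0.15 against control mice (adjusted p = 0.0462). Lep at −0.62 ± 0.22 (adjusted p = 0.0554) did not pass.

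**Figure D5:**
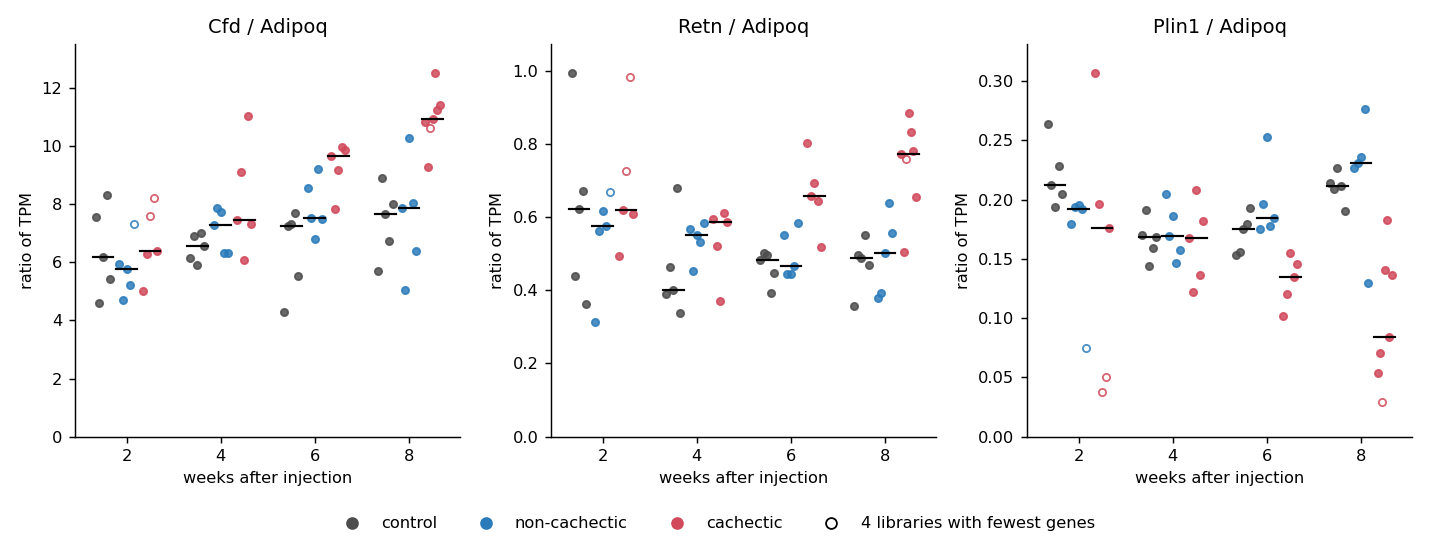
TPM of Cfd, Retn and Plin1 divided by that of Adipoq in the same mouse, against weeks after injection; points are mice, black bars are medians, and open points are the 4 libraries with the fewest genes. In cachectic mice at 8 weeks the median was 10.9 for Cfd and 0.0844 for Plin1, and for these genes cachectic and control points lie apart at that time.

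The ratios in single mice rest on the same values as this fit and describe the same differences. Per Adipoq transcript, Plin1 was 0.190 to 0.226 in control mice at 8 weeks (median 0.211) and 0.0288 to 0.183 in cachectic mice (median 0.0844), which did not overlap. Of the 13577 other genes tested, 1.03% had ratios to Adipoq that were lower in every cachectic mouse than in every control at 8 weeks, and 0.0295% had ratios that were higher. Cfd was 5.70 to 8.91 in control and 9.27 to 12.5 in cachectic mice, again apart. Non-cachectic mice overlapped with cachectic mice in both ratios, at 0.129 to 0.276 for Plin1 and 5.06 to 10.3 for Cfd. Retn overlapped at 8 weeks, at 0.357 to 0.550 in control and 0.504 to 0.883 in cachectic mice.

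At 6 weeks the covariate fit called 1 of 9 genes against control mice, against 7.62% of the table, which was Cfd at 0.54 ± 0.16 (adjusted p = 0.0274, limma). Its ratio to Adipoq was 4.29 to 7.71 in control and 7.84 to 9.98 in cachectic mice. Retn per Adipoq was apart too, at 0.393 to 0.501 in control and 0.518 to 0.801 in cachectic mice. Non-cachectic mice overlapped with cachectic mice in both ratios, at 6.80 to 9.23 for Cfd and 0.444 to 0.582 for Retn. Ratios higher in every cachectic mouse were found for 0.118% of the genes tested at 6 weeks, and lower ones for 0.0147%. Lep per Adipoq at 6 weeks was 0.0104 to 0.0579 in control and 0.000609 to 0.00819 in cachectic mice, apart from each other, although most of these Lep values lie under 1 TPM. Non-cachectic mice had 0.00854 to 0.0305. In the covariate fit at 6 weeks Lep was −0.41 ± 0.24 against control mice (adjusted p = 0.308, limma).

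Plin1 per Adipoq was also low in the libraries with few genes, at 0.0288 in the 1 from 8 weeks, so the fit was repeated without all 4. Plin1 then differed from control mice at 8 weeks by −0.84 ± 0.16 (adjusted p = 6.1e-05, limma), Cfd by 0.59 ± 0.15 (adjusted p = 0.0016), Retn by 0.63 ± 0.16 (adjusted p = 0.00229) and Lep by −0.61 ± 0.21 (adjusted p = 0.0207). With Plin4, Pnpla2 and Fabp4, 7 of 9 genes were called, against 34.0% of the table. At 2 weeks the covariate fit of all mice called Lep (−0.75 ± 0.24, adjusted p = 0.0192) and Plin1 (−0.71 ± 0.28, adjusted p = 0.0418) lower against control mice, against 35.1% of the table, and 0 of the 9 genes without the 4 libraries.

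The wider lipid pathway was counted on 6 lists, in cachectic against control mice at 8 weeks, where 6.65% of all genes tested were called higher and 8.12% lower in all mice. Of 11 tested genes of adipocyte identity and adipogenesis, such as the regulators that turn precursors into fat cells, 0 were called, with a median log2 fold change of 0.12 (−0.09 over all genes tested). Of 15 genes of lipogenesis and triglyceride synthesis 0 were higher and 1 lower. This was Gpam, which catalyses the first step of triglyceride assembly, at 65.4 ± 39.3 TPM in cachectic (n = 7), 161 ± 23.6 TPM in non-cachectic and 171 ± 20.3 TPM in control mice (log2 fold change −1.61 ± 0.34, adjusted p = 0.000473, limma). Brown and beige fat markers had 0 of 6 called.

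Of 9 genes of lipid uptake 2 were higher and 0 lower. Gpihbp1, which holds lipoprotein lipase on the capillary wall, had 61.0 ± 12.4 TPM in cachectic and 33.4 ± 6.37 TPM in control mice (0.84 ± 0.19, adjusted p = 0.000968, limma). Cd36, a fatty acid transporter of muscle, fat and capillaries, had 782 ± 166 and 549 ± 51.5 TPM (0.48 ± 0.12, adjusted p = 0.00311).

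Of 15 tested partners of the lipid droplet and of lipolysis 0 were higher and 3 lower. These were Mgll, the lipase of the last step (−1.06 ± 0.28, adjusted p = 0.00586, limma), Fitm2, which helps droplets form (−0.93 ± 0.25, adjusted p = 0.00797), and Aqp7, a channel for glycerol (−0.82 ± 0.23, adjusted p = 0.0093). Mgll stood at 32.1 ± 16.4 TPM in cachectic and 60.2 ± 6.00 TPM in control mice.

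Of 9 genes of fibro-adipogenic progenitors, the connective tissue cells of muscle that can turn into fat cells, 1 was higher and 2 lower. Ly6a (Sca-1), which is also expressed by endothelium, had 171 ± 43.8 TPM in cachectic and 75.1 ± 12.1 TPM in control mice (1.15 ± 0.22, adjusted p = 0.000171, limma). Col15a1, a collagen of the basement membrane zone, had 7.03 ± 3.31 and 41.1 ± 10.1 TPM (−2.49 ± 0.39, adjusted p = 7.4e-06), and Zfp423, a regulator of fat cell commitment, had 2.73 ± 1.08 and 5.70 ± 1.10 TPM (−0.90 ± 0.25, adjusted p = 0.00717). At 6 weeks Ly6a was the single call of these 6 lists (1.09 ± 0.24, adjusted p = 0.0025, limma). In that comparison 6.79% of all genes tested were called.

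The counts of these lists at 8 weeks grew in part without the 4 libraries with few genes. Adipocyte identity then had 2 higher and 1 lower of 11, lipogenesis 1 higher and 1 lower of 15, lipid uptake 3 higher of 9, droplet partners 1 higher and 3 lower of 15, and fibro-adipogenic progenitors 1 higher and 2 lower of 9. Brown and beige fat markers still had 0 of 6. In that fit 22.2% of all genes tested were higher and 12.4% lower; on TPM without mitochondrially encoded genes the split was 11.7% higher and 25.4% lower.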

How the data were processed

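RNA from the diaphragms of 62 mice was sequenced as paired reads. After trimming and filtering, the authors mapped reads to the mouse genome GRCm38 (mm10) in CLC Genomics Workbench, and they deposited TPM per gene and mouse, in which every library sums to 1000000. Groups came from the sample labels. The sources name different TruSeq kits, and which annotation and strand setting were used is not given in the sources used here. TPM carries no counts, so the depth is unknown and no counting error is given.

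From the TPM, log2(TPM + 1) was taken for the 13578 genes that reached 1 TPM in 5 or more mice. limma (version 3.58.1, R 4.3.3) fitted the 12 conditions with a mean-dependent prior. Benjamini-Hochberg adjustment ran over all genes tested, within each comparison, and a gene was called at an adjusted p under 0.05. The study itself used a rank test (Kruskal-Wallis) followed by Dunn's test. Single genes were also tested by exact two-sided permutation. The fit was tested on simulated data. Python 3.11.15 and matplotlib 3.10.9 were used.

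Named genes are the 10 listed ones, up to 4 called genes per lipid list with the largest fold change at 8 weeks, and the 5 genes most like Adipoq. The members, gene lists and tests were chosen with earlier results of these data known. Alternatives were a pseudocount of 0.1, no filter, median-ratio and quantile scaling, TPM without mitochondrially encoded genes, array weights, a replicate block, Dunn's and permutation tests, fits of the 2 groups compared, and leaving out single libraries, the 4 with the fewest genes or the 4 with the most liver transcripts. Adipoq as a covariate, and TPM without mitochondrially encoded genes combined with leaving out the 4 libraries, were added after the data had been seen. Mice are separate animals of single experiments, and nothing in the labels marks a batch.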

Additional observations from a re-analysis of the deposited data

Results flagged for a closer look

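Dixon's test on TPM was run on 120 groups of values, 10 genes in 12 conditions. In 28 the highest or lowest mouse lay far from the rest. Chance would flag about 1 in 20 groups only for normally distributed, independent values. TPM was not put on a log scale here and the genes varied together, so the 28 cannot be set against that rate. All 10 genes had at least 1 flagged value.

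Control replicate 2 at 2 weeks stood above the other controls in Adipoq (190.9 TPM), Lep (8.49 TPM), Retn (83.89 TPM), Plin1 (40.51 TPM), Fabp4 (1494 TPM), Cidec (102.1 TPM), Cfd (879.9 TPM) and Lipe (44.2 TPM). The same library had the highest sum of liver markers, 24398 TPM.

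Further values came from libraries with few genes. Cachectic replicate 3 at 2 weeks stood above its group in Adipoq (102.6 TPM), Retn (74.35 TPM) and Cfd (778.3 TPM). Non-cachectic replicate 5 at 2 weeks was high in Retn (69.05 TPM) and Fabp4 (1874 TPM) and low in Plin4 (51.96 TPM) and Pnpla2 (74.5 TPM). Cachectic replicate 3 at 8 weeks was high in Adipoq (191.6 TPM), Retn (145.3 TPM), Fabp4 (2000 TPM) and Cfd (2033 TPM), with erythroid markers summing to 41261 TPM, the highest of all libraries.

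Among the remaining libraries, non-cachectic replicate 3 at 8 weeks was high in Retn (48.02 TPM), Cidec (120.8 TPM), Cfd (982.9 TPM) and Lipe (36.89 TPM). Non-cachectic replicate 1 at 6 weeks was high in Plin4 (323.1 TPM) and Pnpla2 (295.8 TPM), and non-cachectic replicate 2 at 6 weeks in Plin1 (10.03 TPM). Lep was high in cachectic replicate 3 at 4 weeks (0.9793 TPM) and control replicate 5 at 6 weeks (1.212 TPM). No explanation was tested for any of them.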

How the results depend on the processing

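Counts of the 10 genes called (adjusted p under 0.05, limma) moved by over 1.5 times in 50 pairings of a comparison with an alternative, over 18 comparisons, and stayed within that limit in 406. For cachectic against control mice at 8 weeks the count was 1 in all mice; it was 0 with no filter, median-ratio scaling, quantile normalization, TPM without mitochondrially encoded genes or only the 2 groups compared, 3 with array weights or without the 4 libraries with few genes, 4 with Adipoq as a covariate, 7 with the covariate and without those libraries, and 0 to 2 on leaving out single mice. At 6 weeks it was 0, and 1 with array weights, with only the 2 groups compared, without the 4 libraries or with the covariate, and 3 with the covariate and without the libraries. At 2 weeks it was 0, and 2 with the covariate. Leaving out single mice at 2 weeks gave 0 to 2: Lep and Lipe were called lower without cachectic replicate 1 (−0.77, adjusted p = 0.0457, and −0.82, 0.0255) or 2 (−0.88, 0.0247, and −0.77, 0.0345), and Lep without control replicate 1 (−0.84, 0.0426). In all mice 29.3% of the genes tested were called in this comparison at 2 weeks. These calls are therefore no result about Lep or Lipe. Against non-cachectic mice the count was 0 at every time. At 8 weeks it was 3 with array weights, 2 without the libraries, 3 with the covariate and 6 with both, and 0 to 1 on leaving out single mice, the 1 being Plin4 without cachectic replicate 3 (adjusted p = 0.00704). At 6 weeks it was 1 with array weights, only the 2 groups compared, without the libraries or with both changes, and at 4 weeks 1 (Lipe) with both. For the change of the cachectic minus control difference from 2 to 8 weeks it was 0, then 1 without the libraries, 3 with both changes, and 0 to 2 on leaving out single mice, the 2 being Plin4 (2.15) and Pnpla2 (1.17) without cachectic replicate 3 at 8 weeks; from 4 to 8 weeks it was 2 with array weights. For cachectic mice at 8 against 4 weeks it was 0, then 5 with array weights, 1 without the libraries and 4 with both. The share of the table called moved between fits too. At 8 weeks against control mice it was 14.8% in all mice and 34.0% with the covariate and without the libraries. Under array weights that share is not given here, so these counts are no result about the list. On TPM without mitochondrially encoded genes and without the 4 libraries the count was 2 at 8 weeks against control mice, 1 at 8 weeks against non-cachectic mice, 1 at 6 weeks against each, and 1 for the change from 2 to 8 weeks. The cause of these moves was not tested, apart from the libraries left out.

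Replicate numbers do not pair the mice: in 0 of 12 pairs of groups did every same-numbered pair of mice deviate together by a correlation over 0.1 (range −0.633 to 0.387). With the replicate block the count was 1 (Plin4) at 6 weeks against control (0.93, adjusted p = 0.0174) and 1 against non-cachectic mice, and 0 at 8 weeks against control mice. Over the fold changes of single genes at 6 and 8 weeks, no called value changed sign; 961 stayed on their side of the threshold, 53 passed it newly, 14 no longer passed and 4 moved across 0 without having been called. All 14 losses were of Fabp4 at 8 weeks against control mice. Leaving out the 4 libraries with the most liver transcripts moved no count.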
